A study of Mus musculus with 12 samples.

Results

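Potassium channel genes were taken as the genes whose symbol is Kcn followed by lower-case letters and, in all but Kcnrg, a number, without Kcnj8, which gave 92 of the 47069 genes in the deposited count table. They were measured by RNA-seq in whole mouse lungs of embryonic day 15.5 (E15.5), strain C57BL/6, in 3 wild-type lungs (WT) and in 3 lungs with a conditional knockout (CKO). The CKO lungs are labelled Tgfbr2lox/flox/Tbx4-rtTA/Teto-Cre in replicates 1 and 2 and Tgfbr2flox/flox/Tbx4-rtTA/Teto-Cre in replicate 3. Tbx4-rtTA with Teto-Cre is a doxycycline-dependent Cre system of lung mesenchyme, and Tgfbr2 codes for a receptor of transforming growth factor beta. The labels give the WT lungs as wild type and do not say which transgenes they carry. For all 6 lungs the labels give doxycycline at 1 mg/ml in drinking water and in food from E6.5. The question is which channel genes differ in lungs with this receptor gene targeted in mesenchyme.

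Potassium channels let potassium ions leave or enter a cell along their gradient and so set its membrane potential. In the airway and vessel walls, opening of these channels holds smooth muscle relaxed by keeping voltage-gated calcium channels closed, and in fetal lung epithelium potassium exit accompanies chloride and fluid secretion. Voltage-gated channels (Kcna to Kcnd, Kcnq and Kcnh) open on depolarisation, calcium- and sodium-activated channels (Kcnma1, Kcnn, Kcnt) read ions inside the cell, Kcnu1 is their pH-sensitive relative from sperm, inward rectifiers (Kcnj) and channels with a pair of pore loops per subunit (Kcnk) carry the resting current, and auxiliary subunits (Kcnab, Kcne, Kcnip, Kcnmb) form no pore and tune the pore-forming ones.

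All pore-forming members share a short selectivity filter, which lines the narrowest part of the pore. It was searched in the longest open reading frame of each gene's GENCODE M21 transcripts as 5 codons, for threonine or serine, any residue, glycine, one of tyrosine, phenylalanine or leucine, and glycine. All 76 pore-forming members held it, against 5.35% of 21901 protein-coding genes. Each of the 14 Kcnk genes held it 2 times, once per pore loop, and 2 of the other pore-forming genes, Kcnh2 and 1 Kcna to Kcnd gene, also held 2 matches. For Kcnh2 the second match is shown. The stretches below belong to members on which the comparison turns and show the filter in several families; capitals mark the 5 filter codons, in the coding strand, 5′ to 3′.
Kcnk2 pore loop 1: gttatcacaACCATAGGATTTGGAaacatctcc
Kcnk2 pore loop 2: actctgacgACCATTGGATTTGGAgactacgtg
Kcnk3 pore loop 1: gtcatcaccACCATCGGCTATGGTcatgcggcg
Kcnk3 pore loop 2: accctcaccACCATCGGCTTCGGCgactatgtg
Kcnma1: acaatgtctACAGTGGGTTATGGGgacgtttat
Kcnt2: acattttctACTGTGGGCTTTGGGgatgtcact
Kcnb2: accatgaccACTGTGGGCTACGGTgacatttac
Kcng1: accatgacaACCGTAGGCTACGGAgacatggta
Kcnh2: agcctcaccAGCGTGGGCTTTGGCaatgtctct
Within these stretches the first codon of the filter reads for serine in Kcnh2 and for threonine in the others.

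The lungs had 31983717 to 51572845 gene counts each, and the channel genes together took 317 to 354 CPM of unscaled library size in each. CPM are counts relative to library size (elsewhere the TMM-scaled size), and values per lung stand in the order of replicates 1, 2 and 3. The targeted gene Tgfbr2 stood at 199.7, 202.7 and 230.0 CPM (WT) and at 213.5, 221.4 and 239.1 CPM (CKO), and did not pass the test (log2 fold change 0.09 ± 0.07 SE, adjusted p = 0.453). That count covers the whole gene and the whole lung and does not check the deletion. Xist had 61807 and 100817 counts in replicate 1 of WT and CKO and 22 to 41 counts in the other lungs, so replicate 1 of both groups was female by its RNA and the others were male. With replicate 1 as a covariate, 8 channel genes were higher and 7 lower, where 1195 and 778 of all genes were. In that edgeR fit Kcnh1 did not pass (adjusted p = 0.0598), and Kcne2 (adjusted p = 0.0223) and Kcnf1 (adjusted p = 0.0244) passed as higher. The labels do not say whether lungs of a group share a litter, so the p-values speak only of the spread among these 6 lungs. In a whole-organ sample, fewer cells of a type and less RNA per cell cannot be told apart.

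Kcnn3, a small-conductance calcium-activated channel, rose and Kcnk2, the mechanosensitive channel TREK-1, fell in CKO lungs. Kcnn3 was 3.14-fold higher and Kcnk2 3.54-fold lower in CKO than in WT lungs, with no overlap between the groups. Of the 92 members, 65 had enough counts to be tested; 6 rose, 8 fell and 51 did not pass (quasi-likelihood F test of edgeR, adjusted p under 0.05). The members that rose were Kcnn3, Kcnab1, Kcnb2, Kcnh2, Kcnk13 and Kcnk6, and those that fell were Kcnk16, Kcnk2, Kcnt2, Kcng1, Kcnn4, Kcnma1, Kcnk3 and Kcnh1. The called share of tested members was 21.5%, beside 8.71% of all 17843 genes tested; 9.23% rose beside 5.64% of all genes, and 12.3% fell beside 3.08%. Called changes of at least 2-fold numbered 8, or 12.3% of tested members, beside 2.57% of all genes. The median log2 fold change was 0.05 over tested members and -0.01 over all genes, and the median size of the change without its sign was 0.44 against 0.14. The tested members stood at lower levels than other genes, with a median WT level of 1.79 CPM against 18.3 CPM. The comparisons of size were not matched for level, and counting error weighs more at low counts.

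For 30 tested members the ranges of the WT and CKO lungs were apart, 15 higher and 15 lower in CKO lungs, a share of 46.2% beside 29.9% of all genes. All 14 called members were among them.

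The calls rested on single lungs to a degree that differed by gene. Kcnn3, Kcnb2, Kcnk2 and Kcnab1 passed with any 1 lung left out, and Kcnk3 passed except without WT replicate 2 (adjusted p = 0.057). The other 9 called members lost their call when any one of replicates 1 and 2 of WT or replicates 2 and 3 of CKO was left out. Without WT replicate 3, Kcnk13, Kcnma1 and Kcnn4 lost their call as well. In that fit 7 members were higher and 6 lower, where 1246 and 813 of all genes were. Without WT replicate 2, 3 members were higher and 1 lower, where 1.39% of all genes passed; without WT replicate 1, CKO replicate 2 or CKO replicate 3, 3 were higher and 2 lower, where 2.16%, 1.65% and 2.66% of all genes passed. Without CKO replicate 1, 14 were higher and 11 lower, where 15.9% of all genes passed, and 13 of the 14 calls were kept. CKO replicate 1 was the CKO lung nearest to the WT mean for 10 of the 14 called members.

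**Figure D1:**
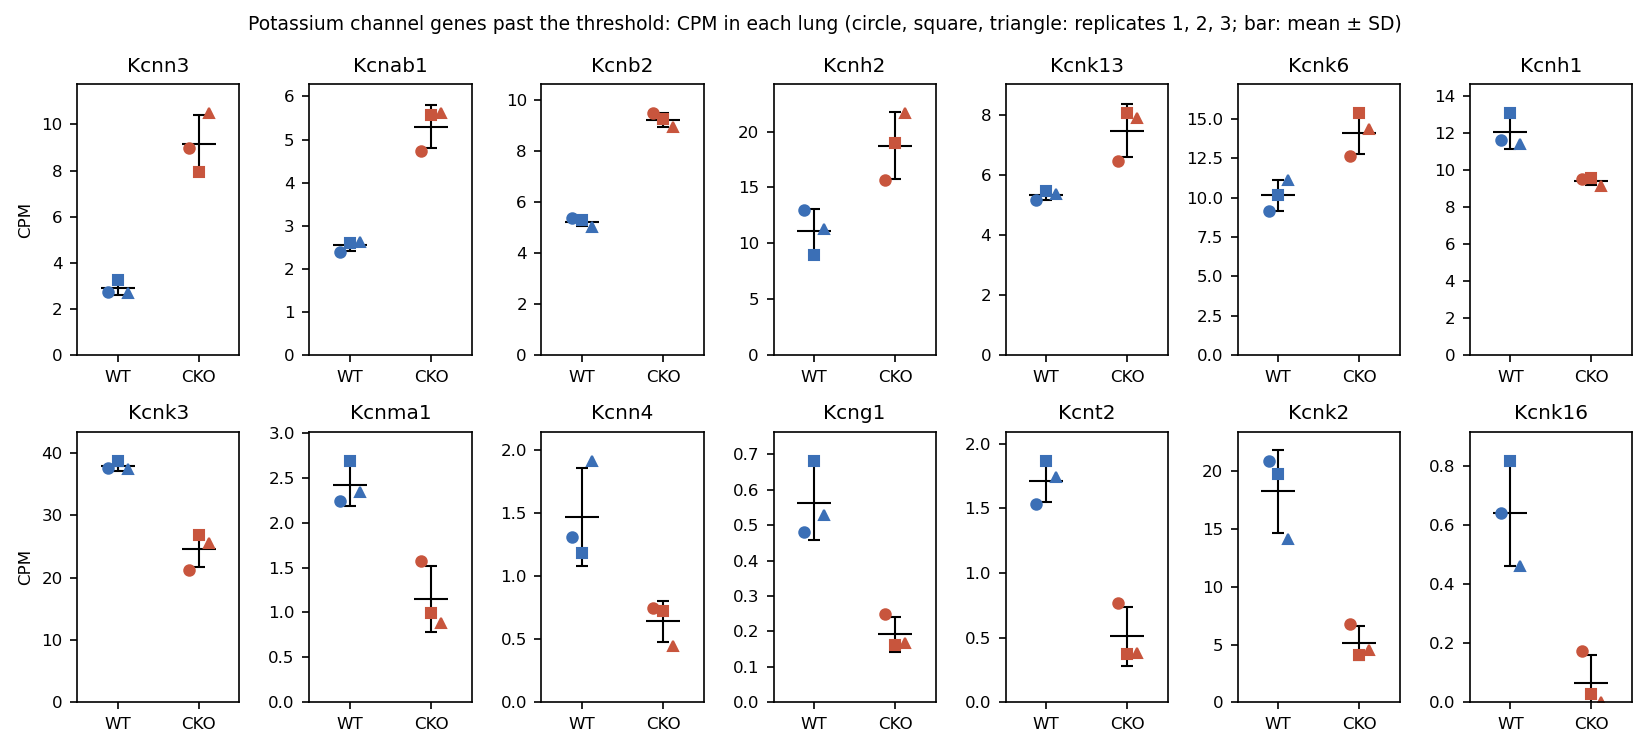
CPM (y axis, from 0) of the 14 called potassium channel genes in each WT (blue) and CKO (red) lung, with the mean and SD of each group, ordered by log2 fold change. The 3 CKO lungs lie apart from the 3 WT lungs in every panel, with Kcnn3 at 7.94 to 10.5 CPM against 2.69 to 3.27 CPM and Kcnk2 at 4.08 to 6.80 CPM against 14.1 to 20.9 CPM.

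Per kilobase, Kcnk genes held the largest share of channel RNA among the families in every lung. Levels between genes were compared as CPM per kilobase of merged exons. Kcnk1, the weakly rectifying channel TWIK-1, was highest in WT lungs at 13.2 ± 0.438 (SD, n = 3). It was followed by Kcnk3, the acid-sensitive channel TASK-1, at 9.53 ± 0.184 and Kcnk5, the channel TASK-2, at 5.88 ± 0.415. The lowest WT lung for Kcnk1 lay above the highest for Kcnk3, and the same held for Kcnk3 over Kcnk5. Kcne4, an auxiliary subunit that damps some voltage-gated channels, stood at 5.68 ± 0.330 and overlapped Kcnk5. Kcnj2, an inward rectifier of many excitable cells, stood at 3.77 ± 0.526 and overlapped Kcnk2 at 3.69 ± 0.728. The 5 highest genes made up 46.8% to 48.6% of the summed per-kilobase level in WT lungs and 43.8% to 45.0% in CKO lungs. In all, 20 members had a WT mean of at least 1 CPM per kilobase, 38 lay between 0.1 and 1 and 34 lay under 0.1.

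The make-up of this RNA differed between the groups. Kcnk genes took 46.7%, 45.9% and 43.9% of the summed level in WT replicates 1 to 3 and 41.1%, 39.5% and 35.3% in CKO replicates 1 to 3. Every CKO lung was thus below every WT lung. Inward rectifiers took 7.76% to 8.30% in WT and 5.65% to 6.72% in CKO lungs, and auxiliary subunits 17.4% to 18.7% against 19.5% to 23.8%. Kcnh genes took 5.15% to 5.89% against 6.56% to 7.74%, and calcium- or sodium-activated channels 2.18% to 2.41% against 2.86% to 3.10%. These shares sum to a whole, so a lower share of one family raises the others. A share can also move with a single gene and need not hold for a whole family. Per kilobase, the mean of Kcne4, which did not pass, went from 5.68 in WT to 7.56 in CKO lungs, and that of Kcnn3 from 0.278 to 0.874. In CKO lungs Kcnk2 stood in place 23 per kilobase, against place 6 in WT lungs, and Kcnh2 in place 5 against 12. By the authors' deposited RPKM, Kcnk2 stood in place 35 in CKO and 13 in WT lungs, at a WT mean of 1.08 RPKM. Kcnh2 stood in place 7 in CKO and 12 in WT lungs by that measure. The family shares were not computed from RPKM.

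**Figure D2:**
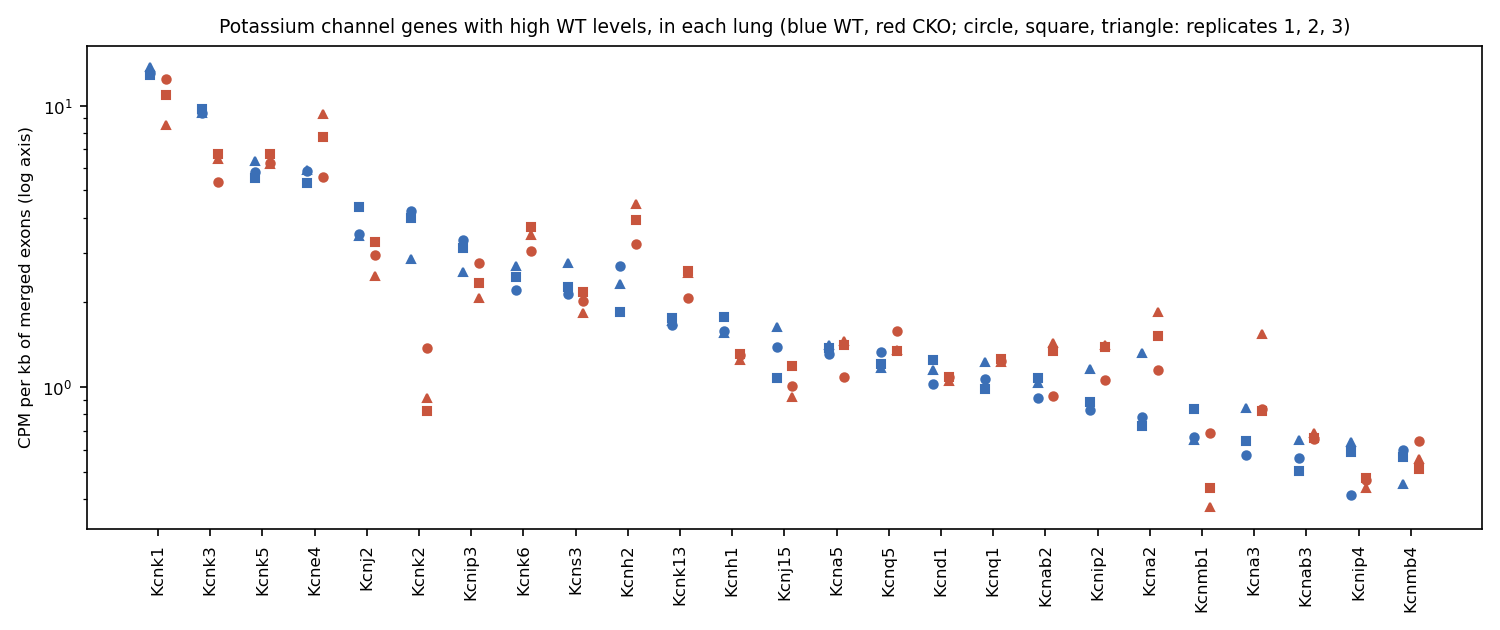
Level of 25 potassium channel genes with high WT means in each lung (y axis: CPM per kilobase of merged exons, log axis; blue WT, red CKO). Kcnk1 and Kcnk3 lead in WT lungs at means of 13.2 and 9.53, and Kcnk2 shows the widest gap between the groups, at means of 3.69 and 1.04.

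Among the Kcnk genes, 2 of the 7 tested rose, 3 fell and 2 did not pass; the median log2 fold change was -0.31. The other 7 Kcnk genes had at most 10 counts in any lung and were not tested. Kcnk2 (chromosome 1, 189207930 to 189402273, GRCm38, minus strand) had 20.9, 19.7 and 14.1 CPM (WT) and 6.80, 4.08 and 4.54 CPM (CKO). Its log2 fold change was -1.82 ± 0.22 SE (adjusted p = 0.00516). All CKO lungs were below all WT lungs, and CKO replicate 1 was the highest of them. TREK-1, its product, is a background channel opened by stretch, heat and lipids. An antisense gene, A430027H14Rik, shares 12.2% of the Kcnk2 exon length; it had 64 counts over all lungs against 2920 for Kcnk2.

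Kcnk3 (chromosome 5, 30588170 to 30625271, plus strand) fell 1.54-fold, from 37.5, 38.7 and 37.4 CPM in the WT lungs to 21.3, 26.8 and 25.6 CPM in the CKO lungs (log2 fold change -0.63 ± 0.09 SE, adjusted p = 0.00877). Here CKO replicate 1 was the lowest lung, on the far side from WT. TASK-1 helps set the resting potential of human pulmonary artery smooth muscle, and loss-of-function variants of the human gene cause pulmonary arterial hypertension. Kcnk3 overlaps Gm9899 on the other strand over 5.8% of its exon length, and Gm9899 had 570 counts over all lungs against 7786.

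Kcnk16, which encodes the alkaline-activated channel TALK-1 known from pancreatic islets, had 20, 42 and 21 counts in WT replicates 1 to 3 and 7, 1 and 0 counts in CKO replicates 1 to 3. It was low in every lung, at 0.463 to 0.818 CPM (WT) and 0 to 0.174 CPM in CKO. The log2 fold change was -3.20 ± 0.72 SE (adjusted p = 0.0348), -5.36 without CKO replicate 1 and -2.60 without CKO replicate 3. Its neighbour Kcnk5 lies 79566 bases away on the same strand of chromosome 14 and had 20.0 ± 1.41 CPM (WT) and 21.8 ± 1.03 CPM (CKO; adjusted p = 0.373).

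Kcnk6 and Kcnk13 rose. Kcnk6, the endolysosomal and vascular channel TWIK-2, had 9.185, 10.2 and 11.1 CPM (WT) and 12.7, 15.4 and 14.4 CPM (CKO), 1.39-fold higher (adjusted p = 0.0378). Kcnk13, the halothane-inhibited channel THIK-1, which is active in microglia, had 5.15, 5.47 and 5.36 CPM (WT) and 6.45, 8.05 and 7.91 CPM (CKO), 1.40-fold higher (adjusted p = 0.0465). The lowest CKO lung was replicate 1 for both. Kcnk1 had 29.4 ± 0.979 CPM (WT) and 23.7 ± 4.35 CPM (CKO; adjusted p = 0.169) and passed without CKO replicate 1, with a log2 fold change of -0.43 (adjusted p = 0.0291).

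Calcium- and sodium-activated channels went both ways. Of 8 members, all tested and counting Kcnu1, which did not pass (adjusted p = 0.153), 1 rose, 3 fell and 4 did not pass, with a median log2 fold change of 0.07. Kcnn3 (chromosome 3, 89520164 to 89675132, plus strand) had 2.75, 3.27 and 2.69 CPM (WT) and 8.99, 7.94 and 10.5 CPM (CKO). This was the smallest p of all members (log2 fold change 1.65 ± 0.15 SE, adjusted p = 0.00194, highest adjusted p 0.0158 with 1 lung left out). All 3 CKO lungs were raised alike, CKO replicate 1 included. Kcnn3 encodes SK3, a channel opened by calcium through bound calmodulin and known from neurons, endothelium and the PDGFRA-positive interstitial cells of the gut. Kcnn1 and Kcnn2, the other small-conductance genes, did not pass: Kcnn1 had 1.58 ± 0.167 CPM (WT) and 1.75 ± 0.124 CPM (CKO), and Kcnn2 had 2.20 ± 0.145 and 3.24 ± 0.588 CPM (adjusted p = 0.0939).

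Kcnn4, the intermediate-conductance channel of red cells, lymphocytes and secretory epithelia, fell 2.30-fold, from 1.31, 1.19 and 1.92 CPM to 0.747, 0.729 and 0.451 CPM (adjusted p = 0.0438). Kcnma1, the pore of the large-conductance channel that calcium and voltage open together in smooth muscle, fell 2.11-fold, from 2.24, 2.69 and 2.34 CPM to 1.57, 0.999 and 0.879 CPM (adjusted p = 0.0352). Kcnt2, a sodium-activated channel, fell 3.36-fold, from 1.54, 1.87 and 1.74 CPM to 0.772, 0.378 and 0.380 CPM (adjusted p = 0.0167). CKO replicate 1 was the highest CKO lung for each of these 3 genes. The paralogue of Kcnt2, Kcnt1, was at 0.610 CPM (WT) and 0.624 CPM (CKO; adjusted p = 0.999).

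Of the subunits that join Kcnma1, Lrrc55 passed and Kcnmb1, Kcnmb2, Kcnmb4, Lrrc26 and Lrrc52 did not. Kcnmb1, the beta subunit of smooth muscle, had 2.78, 3.50 and 2.71 CPM (WT) and 2.89, 1.84 and 1.57 CPM (CKO; adjusted p = 0.237), with CKO replicate 1 inside the WT range. Without CKO replicate 1 it passed as lower (log2 fold change -0.81). Lrrc55, a gamma subunit that shifts channel opening to lower voltages, rose 7.13-fold, from 0.896, 0.623 and 0.375 CPM to 3.09, 4.27 and 5.89 CPM (adjusted p = 0.00567) and passed with any 1 lung left out. Lrrc26, another gamma subunit, had 0.685 ± 0.302 CPM (WT) and 0.189 ± 0.174 CPM (CKO; adjusted p = 0.128). Kcnmb2, Kcnmb4 and Lrrc52 had adjusted p of 0.386, 0.806 and 0.692.

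**Figure D3:**
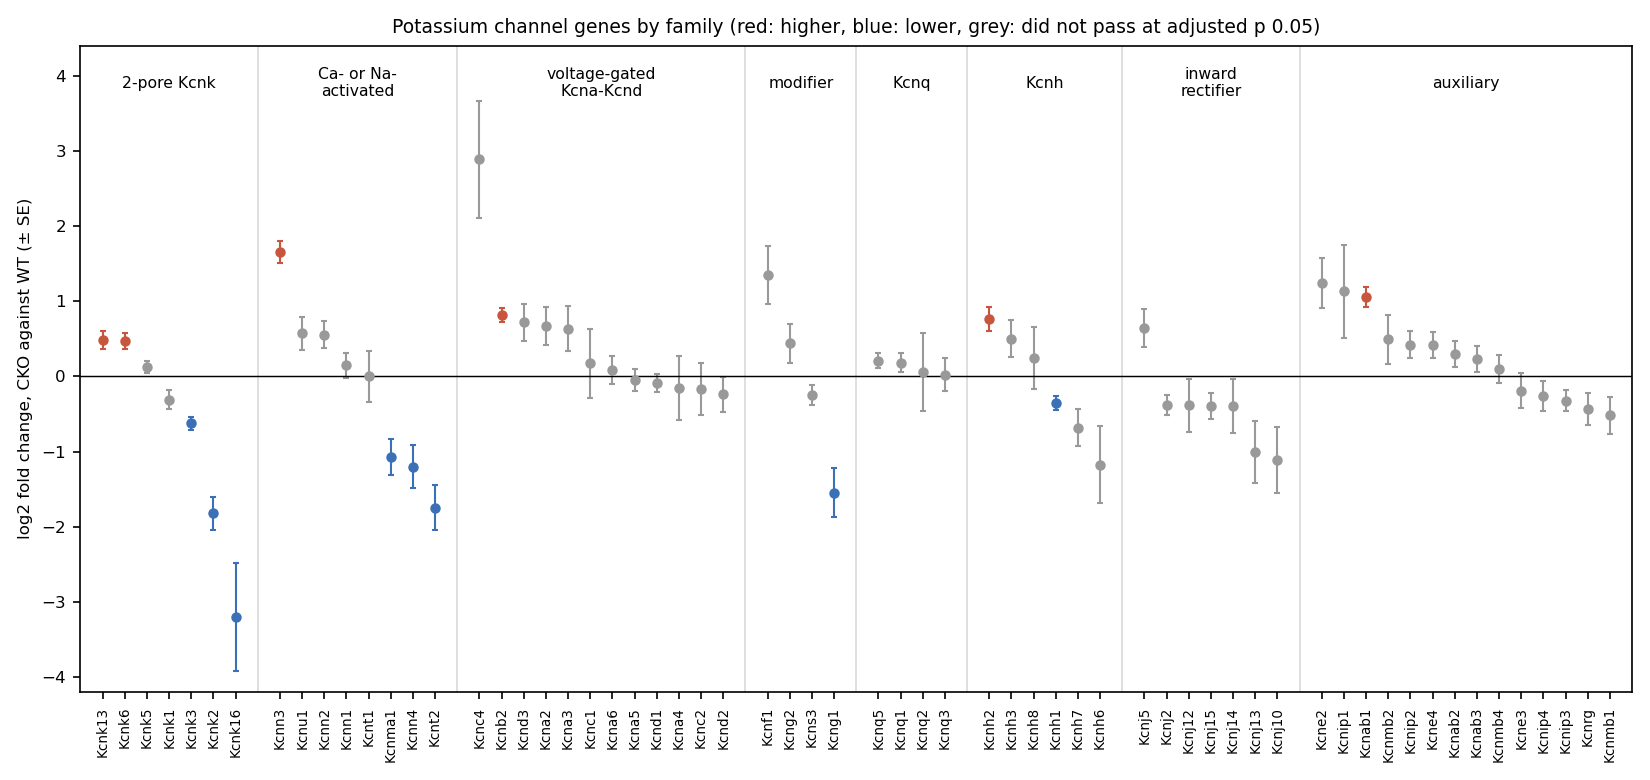
log2 fold change of CKO against WT with its SE (y axis) for 62 tested members, grouped by family and ordered within it; red and blue mark members that rose and fell, grey those that did not pass. Kcnk and calcium- or sodium-activated genes spread from -3.20 for Kcnk16 to 1.65 for Kcnn3, whereas no Kcnq or inward rectifier gene plotted passed.

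Of the voltage-gated alpha subunits Kcna to Kcnd, 1 of 14 tested rose with edgeR and 13 did not pass, with a median log2 fold change of 0.13. The one that rose was Kcnb2 (chromosome 1, 15287254 to 15723750, plus strand), a delayed rectifier of neurons and smooth muscle. It had 5.38, 5.32 and 5.05 CPM (WT) and 9.49, 9.29 and 8.95 CPM (CKO), 1.76-fold higher (log2 fold change 0.82 ± 0.09 SE, adjusted p = 0.00441). CKO replicate 1 was the highest of the CKO lungs.

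Kcnc4, a fast-inactivating channel, had the largest rise in size that did not pass. It had 0.288, 0.273 and 0.0441 CPM in the WT lungs, then 0.324, 1.94 and 2.16 CPM (CKO) (log2 fold change 2.89 ± 0.78 SE, adjusted p = 0.0609). CKO replicate 1 was thus close to WT and the other CKO lungs far above it. Without CKO replicate 1 its log2 fold change was 3.38 (adjusted p = 0.00236), and with DESeq2 it passed with all lungs.

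The modifier subunits Kcnf, Kcng, Kcns and Kcnv give no current alone and alter Kcnb channels by joining them. Of 4 tested, 1 fell and 3 did not pass; 6 had at most 9 counts in any lung and were not tested. Kcng1 fell 2.92-fold, from 0.480, 0.681 and 0.529 CPM to 0.249, 0.162 and 0.166 CPM (adjusted p = 0.0280), while its partner Kcnb2 rose. Kcnf1 had 0.960, 1.05 and 1.46 CPM (WT) and 1.37, 3.83 and 3.70 CPM (CKO; adjusted p = 0.0714), with CKO replicate 1 inside the WT range. Kcns3, the highest modifier per kilobase, had 7.56 ± 1.04 CPM (WT) and 6.38 ± 0.548 CPM (CKO; adjusted p = 0.284).

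The Kcnh genes, relatives of the fly ether-a-go-go channel, showed 1 rise and 1 fall among 6 tested. Kcnh2, the rapid delayed rectifier of the heart, had 13.0, 8.96 and 11.3 CPM (WT) and 15.6, 18.9 and 21.6 CPM (CKO), 1.70-fold higher (adjusted p = 0.0299). Kcnh1 had 11.6, 13.0 and 11.4 CPM (WT) and 9.51, 9.59 and 9.14 CPM (CKO), 1.28-fold lower (adjusted p = 0.0495), the call nearest to the threshold. It passed in 1 of the 6 fits with a lung left out. Kcnq genes, the slow channels that hold neurons, heart and airway muscle in check, had 0 calls among 5 tested with edgeR, with a median log2 fold change of 0.05.

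Inward rectifiers had 0 calls among 7 tested with edgeR and 0 of 6 with DESeq2, which gave no adjusted p for Kcnj13. The median log2 fold change was -0.39. The WT and CKO ranges were apart for 4 of the 7, with 3 lower and 1 higher in CKO lungs, beside 29.9% of all genes. Kcnj2 had 19.0, 23.8 and 18.7 CPM (WT) and 16.1, 17.8 and 13.5 CPM (CKO; adjusted p = 0.122); it passed as lower with replicate number as a block. Kcnj10, a channel of glia and some epithelia, had 1.44, 1.32 and 1.48 CPM in WT, then 1.17, 0.270 and 0.499 CPM (CKO; adjusted p = 0.163). Without CKO replicate 1 it passed, with a log2 fold change of -1.84. The authors' deposited edgeR comparison also had Kcnj10 lower (log2 fold change -1.18, adjusted p = 0.00343). Kcnj13 shares 49.1% of its exon length with Gigyf2 on the other strand, which had 29416 counts over all lungs against 63, so its value is uncertain where the counting did not part the strands.

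Of the auxiliary subunits, 1 of 14 tested rose and 13 did not pass, with a median log2 fold change of 0.26. Kcnab1 (chromosome 3, 65109384 to 65378223, plus strand), a cytoplasmic beta subunit that speeds inactivation of Kcna channels, had 2.40, 2.61 and 2.62 CPM (WT) and 4.73, 5.56 and 5.60 CPM (CKO). It was 2.08-fold higher (log2 fold change 1.05 ± 0.13 SE, adjusted p = 0.00580). Its relatives did not pass, with Kcnab2 at 5.62 ± 0.452 and 6.91 ± 1.49 CPM and Kcnab3 at 1.63 ± 0.208 and 1.91 ± 0.0543 CPM. Kcne2, a small subunit that joins Kcnq1 and Kcnh2, had 0.384, 0.526 and 0.507 CPM (WT) and 0.672, 1.242 and 1.496 CPM (CKO; adjusted p = 0.0594), with no overlap. Kcne4 had 15.6, 14.1 and 15.6 CPM (WT) and 14.8, 20.6 and 24.8 CPM (CKO; adjusted p = 0.178), with CKO replicate 1 inside the WT range.

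**Figure D4:**
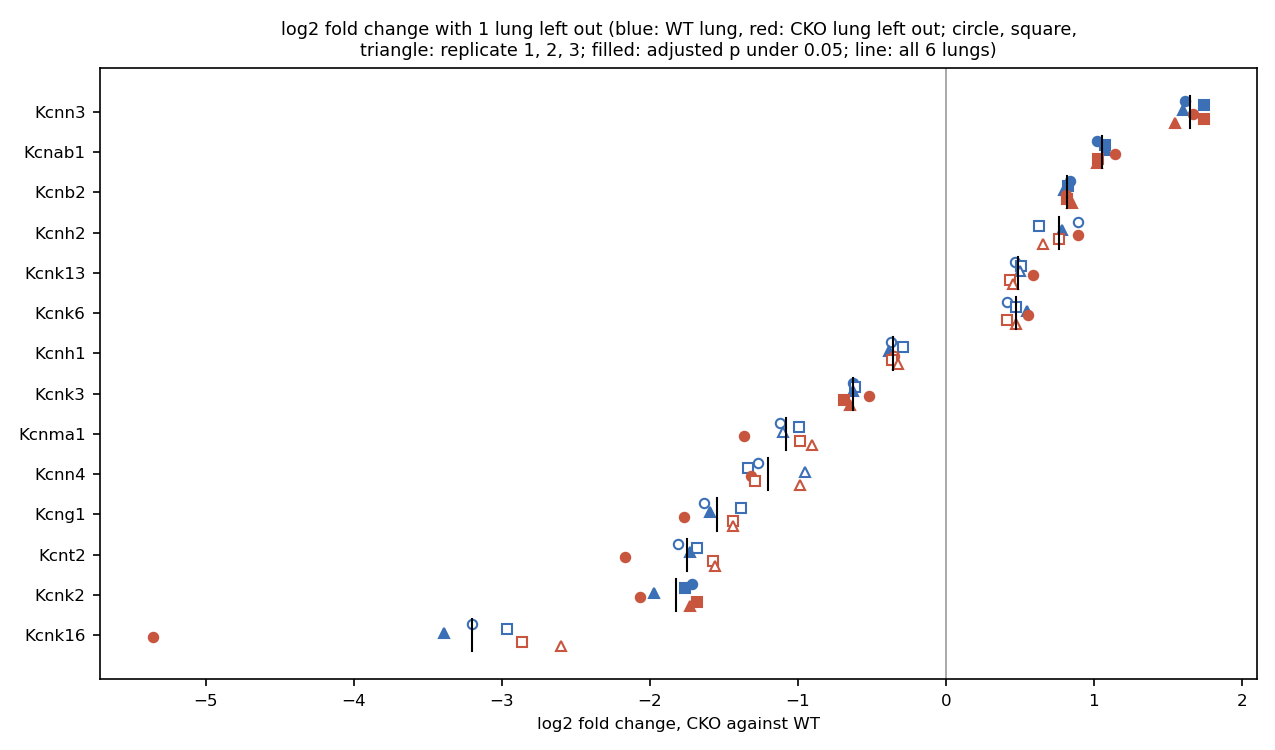
log2 fold change (x axis) of the 14 called members with each lung left out in turn; filled symbols passed at an adjusted p under 0.05 and the line marks the fit with all 6 lungs. Kcnn3, Kcnab1, Kcnb2 and Kcnk2 are filled throughout, no member crosses 0, and Kcnk16 without CKO replicate 1 lies at -5.36.

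Other genes of membrane potential were described from lists chosen by function. Their counts stand beside 8.71% of all genes tested that were called, 5.64% higher and 3.08% lower. Among 14 partners of potassium channels, 12 were tested, Lrrc55 rose and 11 did not pass. Dpp6, a partner of Kcnd channels, had 0.535 ± 0.187 CPM (WT) and 0.964 ± 0.0587 CPM (CKO; adjusted p = 0.112), and Amigo1, a partner of Kcnb channels, had 8.02 ± 0.461 and 9.26 ± 0.398 CPM (adjusted p = 0.209). Among 17 tested potassium pumps and cotransporters, 1 rose, 1 fell and 15 did not pass. Fxyd5, a regulator of the sodium-potassium pump, rose 1.42-fold, from 15.97 ± 1.07 to 22.7 ± 2.46 CPM (adjusted p = 0.0228). Fxyd3 and Fxyd1 had adjusted p of 0.0614 and 0.126. Fxyd5 lost its call when any one of replicates 1 and 2 of WT or replicates 2 and 3 of CKO was left out.

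Calcium and sodium channels of excitable cells, 32 tested, had 4 that rose, 3 that fell and 25 that did not pass, with a median log2 fold change of 0.09. Scn3b, a sodium channel beta subunit, rose 2.47-fold from 9.47, 7.09 and 11.9 CPM to 19.95, 25.8 and 24.4 CPM (adjusted p = 0.00877). Cacnb2, a calcium channel beta subunit, fell 1.52-fold from 36.6, 40.8 and 42.0 CPM to 27.17, 25.03 and 26.31 CPM (adjusted p = 0.00482). Both passed with any 1 lung left out. Cacna1a rose 3.19-fold to 13.8, 29.0 and 37.0 CPM from 8.25 to 8.45 CPM, and Scn7a, the sodium-sensing channel, rose 2.03-fold to 489 ± 53.9 CPM. Cacna1d and Cacna1h, named after their values were seen, rose 1.58-fold and fell 1.41-fold. With any one of those same 4 lungs left out, 1 gene of this list was higher and 1 lower, where 1.39% to 2.66% of all genes passed. Without CKO replicate 1, 5 were higher and 7 lower, where 15.9% of all genes passed.

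Markers of several cell types moved with the groups, and their part in the channel results was not tested. Of all genes tested, 5.64% rose and 3.08% fell. Of 9 smooth muscle markers 3 fell and 1 rose, and their summed level was 1739 to 1856 CPM (WT) and 954 to 1347 CPM (CKO). Of 6 endothelial markers 5 rose, from 1096 to 1187 CPM in WT to 1345 to 1538 CPM (CKO). Of 5 leukocyte markers 4 rose, from 64.1 to 70.6 CPM to 85.7 to 137 CPM. Of 5 red blood cell markers 3 rose, from 416 to 574 CPM to 642.5 to 1140 CPM. Of 5 tested neuroendocrine markers 3 fell, from 7.07 to 9.42 CPM to 0.974 to 1.49 CPM, and of 7 airway epithelium markers 3 fell, from 81.2 to 141 CPM to 6.48 to 47.5 CPM. By summed level, CKO replicate 1 lay nearest to WT for the smooth muscle, endothelial, leukocyte, red blood cell and airway markers. The same held by little for neuroendocrine markers, at 1.49, 1.35 and 0.974 CPM in CKO replicates 1 to 3.

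Neuron, glia and pericyte markers had 0 calls. Summed neuron markers were 15.6 to 23.6 CPM (WT) and 17.5 to 22.1 CPM (CKO), and 0 of 10 passed. Glia and Schwann cell markers were 9.93 to 13.7 CPM and 11.7 to 14.4 CPM, and 0 of 5 tested passed. Pericyte markers were 656 to 778 CPM and 756 to 773 CPM, and 0 of 6 passed. Of 7 tested striated muscle markers 2 rose, Pax7 and Myh8, while the list's sum was 59.5 to 71.4 CPM (WT) and 27.7 to 55.4 CPM (CKO). Sox9 stands in both the distal epithelium and the cartilage list and fell. Of 5 distal epithelium markers 2 fell (1653 to 2165 CPM and 1142 to 1509 CPM), of 3 tested cartilage markers 1 fell (129 to 147 CPM and 91.0 to 132 CPM), and of 4 lung mesenchyme markers 1 rose and 1 fell (773 to 827 CPM and 748 to 837 CPM).

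Members with few counts were 27 in all. Of these, 2 had no counts in any lung, which allows up to 3 counts in each library. The other 25 had at most 31 counts in any lung, the highest being Kcnj3 in CKO replicate 3, and none was tested. Kcnk10 had 2, 1 and 4 counts in the WT lungs and 0 in each CKO lung, too few for a comparison.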

How the data were processed

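RNA-seq counts were taken from 6 whole lungs, each sequenced in 2 runs that share a replicate label, grouped by label. The submitters' processing notes name cutadapt 1.13, Trimmomatic 0.35, STAR 2.5.2b, HTSeq 0.6.1p2 and the build GRCm38; the file headers name GENCODE M8. No source used here states the strand setting of the counting. The deposited gene table holds raw counts per run, which were summed per lung, and RPKM by the authors, which were used for the order of levels only as an alternative. A deposited table of the authors' edgeR 3.16.5 comparison gives log2 fold changes, p-values and adjusted p-values; its 24 columns of per-sample values were not used. The 92 spike-in entries (0.498% to 0.595% of counts) were left out.

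Counts were tested with edgeR 4.0.16 in R 4.3.3 (quasi-likelihood F test on TMM-scaled counts, genes kept by filterByExpr at a minimum of 10 counts, group as the only factor), with Benjamini-Hochberg adjustment over 17843 genes and calls at an adjusted p under 0.05. SE of a log2 fold change is its size over the root of F. The common biological coefficient of variation was 0.127. Merged exon lengths and positions come from GENCODE M21, the same assembly; all 92 members matched on the same chromosome. Alternatives used DESeq2 1.42.0, limma 3.58.1 (voom), other scalings, no filter, single runs, left-out lungs and a replicate block. Both the spread among 3 lungs per group and, for members with few counts, counting error limit precision; limits from a count of 0 cover counting error only.

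Members and lists were chosen with earlier results of these data known. Named members are all called ones and, per family, the one with the smallest p and the highest WT level per kilobase; from each functional list, up to 4 with the smallest p; others were named after their values were seen. Scn2a of the excitable cell list was not matched by symbol. The procedure was run on simulated counts, drawn independently for each lung at the spread fitted to these data. They held no effect of sex or of a single lung, so that run cannot speak to such effects. A few genes and sequences that the rule would name are not reported here and are left out of the figures; counts over families and lists include them.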

Additional observations from a re-analysis of the deposited data

How the results depend on the processing

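The calls kept their direction for all 14 called members under every alternative that gave a value. With 1 lung left out, potassium channel genes numbered 3 to 14 higher and 1 to 11 lower, and all genes 162 to 1713 higher and 90 to 1185 lower; the highest counts came without CKO replicate 1 and the fewest calls in all without WT replicate 2. The 17Feb run alone gave 4 channel genes higher and 4 lower (790 and 465 genes in all) and the 18Feb run 4 and 7 (973 and 539). Kcnh1, Kcnk13 and Kcnk6 did not pass in either run, nor Kcnn4 in the 17Feb run. Kcng1 and Kcnk16 had no value in the 17Feb run, which kept 8 of the 14 calls. DESeq2 gave 11 channel genes higher and 7 lower (1450 and 1027 genes in all), without Kcng1. It added 5 members, all higher, Kcna2, Kcnc4, Kcne2 and Kcnf1 among them. No low-count filter gave 8 and 7 (1262 and 884), without Kcnh1 and Kcnk13. Replicates 2 and 3 only gave 11 and 12 (1363 and 1051), without Kcnh1. The limma-voom fit gave 5 and 8 (964 and 628), without Kcnk13. RLE size factors kept all 14 calls and total count scaling 13, without Kcnh1. Scaling moved the median of all genes by under 0.1 on the log2 scale.

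The replicate block gave 8 channel genes higher and 6 lower, and 1087 and 693 genes in all; Kcng1, Kcnh1, Kcnk13 and Kcnn4 did not pass and Kcna2, Kcne2, Kcnf1 and Kcnj2 did. The numbers were not taken as pairs: same-numbered lungs correlated in their deviations from the group means at 0.10, 0.09 and 0.04 across genes, and CKO replicate 3 correlated best with WT replicate 2 (0.06).

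Kcnn1, which did not pass, had a log2 fold change of -0.082 in the 17Feb run alone. Kcnk16 had -3.84 with limma-voom and -5.39 with replicates 2 and 3 only. The causes were not tested. By deposited RPKM, Kcnk1, Kcnk3 and Kcnk5 kept WT places 1 to 3, Kcne4 and Kcnj2 traded places 4 and 5, Kcnk2 moved from 6 to 13 and Kcnk16 from 38 to 18.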

Other observations

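In the authors' deposited table, which lists 74 of the 92 members, 13 members were higher (17.6%) and 10 lower (13.5%) at an adjusted p under 0.05. Of the 19623 genes in the authors' deposited table, 6.98% were higher and 5.11% lower. No source used here states how that fit treated the 2 runs of a lung.

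Members that lie within 100 kb of each other on a chromosome form 9 neighbouring pairs. Only the pair Kcnk5 and Kcnk16 held a called member. Kcna3 and Kcna2, neighbours on chromosome 3, had log2 fold changes of 0.63 and 0.67 (adjusted p = 0.229 and 0.151). Kcnmb1 lies within the span of Kcnip1 on the other strand of chromosome 11, with no shared exon, and their log2 fold changes were -0.519 and 1.129 (adjusted p = 0.237 and 0.304).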
